A study of Rattus norvegicus with 56 samples.

Results

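How far genes vary between the mammary glands of 12 control rats was read from 18 of the 56 arrays of the study, picked by their labels. They were the first array of each control rat, 2 further arrays of control rat b3, and 4 arrays of 1 pool, named bq, that held all 12 control rats. The first kind of array holds differences between animals, and the other arrays show how far values move when the RNA of 1 source is measured again.

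All animals were female Wistar Furth rats, an inbred strain, so that individuals are nearly alike in their genes. The 12 control rats carried no labelled treatment, and no label gives their age or housing. By the labels 9 were in diestrus, rats b3 and b10 were in estrus, and rat b8 was in proestrus or estrus. For a second look, 12 other rats of the same strain were used that had received what the labels call RXR treatment, named after the retinoid X receptor, of which 6 were in diestrus. Treated rat a3 and a treated pool of 12 were also measured repeatedly. Arrays of a pool share 1 mixture of labelled targets. The technical repeats of the pool arrays carry a source label of an individual gland, but their titles and descriptions name the pool, and these were followed. Spread between rats therefore includes dissection, RNA extraction and labelling, which the 4 arrays of a pool share and cannot show. The labels do not say whether the further arrays of rat b3 were labelled anew.

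The rodent mammary gland is a branched epithelium lying in a pad of fat. Its inner luminal cells can make milk under prolactin and progesterone, its outer basal cells contract under oxytocin, and fibroblasts, vessels, nerves and immune cells surround both. The epithelium grows and regresses with the oestrous cycle, while the adipocytes answer to feeding and insulin. In RNA of a whole gland, fewer cells of a type and less RNA per cell cannot be told apart.

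Array medians of the 12 rats lay between 7.41 and 7.46 log2. A technical score was taken as the position of an array on the main axis of difference among repeat arrays of the treated group. In the 12 rats it ran from -11.33 in b3 to 13.97 in b15, with b8 next highest at 5.53. The 3 arrays of rat b3 scored -11.33, 3.57 and 9.42. Of the pool of 12, technical rep3 scored -10.48 and stood apart from the other 3 arrays, at 6.66 to 8.99. Both repeat sets thus spanned much of this axis themselves.

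Over all 15866 probe sets, the median SD between the 12 rats was 0.112 log2 and that within repeat arrays was 0.098. The median of their ratio was 1.12, so that a typical gene varied between inbred animals little more than between arrays of the same RNA. A minority varied far more. With limma's moderated F test, Benjamini-Hochberg adjusted p under 0.05, 1642 probe sets, 10.3% of those tested, differed between rats by more than repeat arrays. In these the median SD was 0.28 between rats and 0.085 within repeats, a ratio of 3.39. In the other 14224 the medians were 0.106 and 0.100. An SD of at least 0.5 log2 between rats was reached by 158 probe sets, each of which was called, and by none within repeats, where the highest SD was 0.39. With 1 probe set per gene, 1194 of 10411 genes were called (11.5%), and this is the background against which the gene lists are read.

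**Figure D1:**
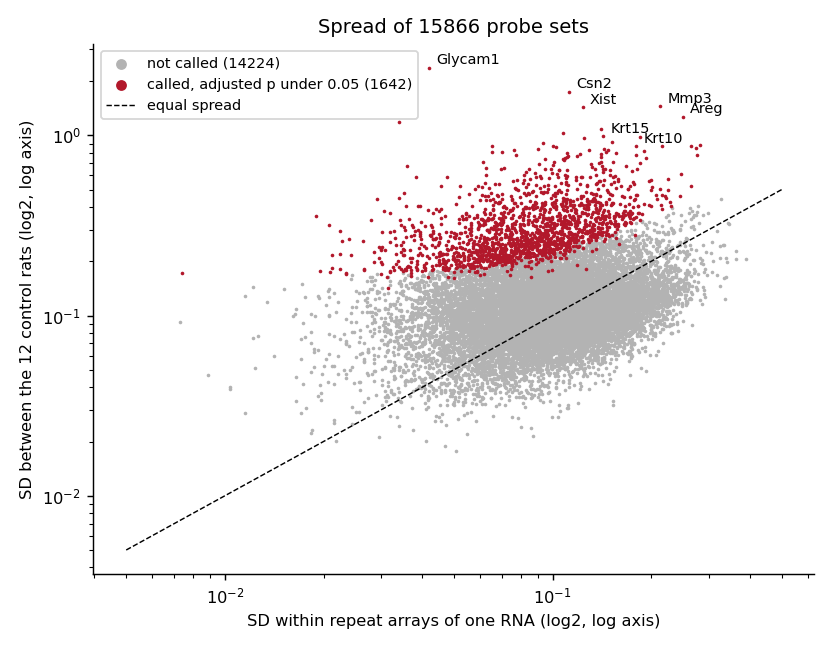
Each point is 1 of 15866 probe sets, with the SD within repeat arrays of one RNA on the x axis and the SD between the 12 control rats on the y axis, both in log2 units on log axes. Red points are the 1642 called probe sets, grey points the other 14224, and the dashed line marks equal spread. Most grey points lie around the line, and Glycam1, with 2.36 against 0.042, lies farthest above it.

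The share of calls rose with level. When probe sets were cut into 4 equal parts by mean, 1.51% were called in the lowest, then 7.39%, 12.7% and 19.8%. The count also rested on how noise was measured. Without technical rep3 of the pool 2685 probe sets were called, and without technical rep1 of rat b3 1051. The 104 genes with an SD of at least 0.5 were all called under each of these, and 76 of them were called by an unmoderated F test, which called 471 probe sets in all.

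The gene with the largest spread was Glycam1, a mucin-like protein that mammary epithelium secretes into milk and that vessels of lymph nodes also make. Its log2 values in the 12 rats ran from 5.89 in b14 over a median of 9.07 to 12.76 in b8, a 117-fold range. Rats b14, b10 and b5 lay at 5.89 to 6.23, below the other 9, which began at 8.4 and filled the range upward. Its 3 arrays of rat b3 gave 11.64, 11.72 and 11.69, and the 4 pool arrays 11.12, 11.14, 11.16 and 11.06. The SD was 2.36 between rats and 0.042 within repeats (adjusted p = 5.34e-11).

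Csn2, the casein that makes up much of milk protein, followed with values from 6.18 in b10 over a median of 10.06 to 11.68 in b12. Its low rats were again b10, b14 and b5, at 6.18, 6.90 and 7.02, with b3 at 8.21. The SD was 1.75 between rats and 0.11 within repeats (adjusted p = 3.97e-08).

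Mmp3, a secreted protease of stromal cells that cleaves matrix, was high in a pair of rats. It stood at 10.07 in b5 and 10.15 in b14, and between 6.0 and 7.07 in the other 10, with a median of 6.6 over all 12. The SD was 1.45 between rats and 0.21 within repeats (adjusted p = 5e-06). Without b5, b10 and b14, a choice made after the values were seen, it was no longer called.

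Xist, the RNA that coats the inactive X chromosome in female cells, ran from 6.30 in b14 over a median of 9.83 to 10.64 in b8. It was low in b14, b6 and b15, at 6.30, 7.07 and 7.98, and lay between 9.66 and 10.64 in the other 9. The SD was 1.43 between rats and 0.12 within repeats (adjusted p = 2.24e-07). The low rats were not those that were low in Glycam1, apart from b14.

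Areg, an epidermal growth factor family ligand that oestrogen induces in luminal cells, was spread evenly from 6.57 in b5 over a median of 8.4 to 10.68 in b15. Rat b10, in estrus, had 10.44, but b3, also in estrus, had 8.65. The SD was 1.27 between rats and 0.25 within repeats (adjusted p = 3.01e-05). Over the 12 rats, among 103 genes compared, Areg was most like Egr2 (r = 0.77), Il18 (0.69) and Ccnd1 (0.65). In treated rats these values were lower, at 0.47, 0.33 and 0.27.

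**Figure D2:**
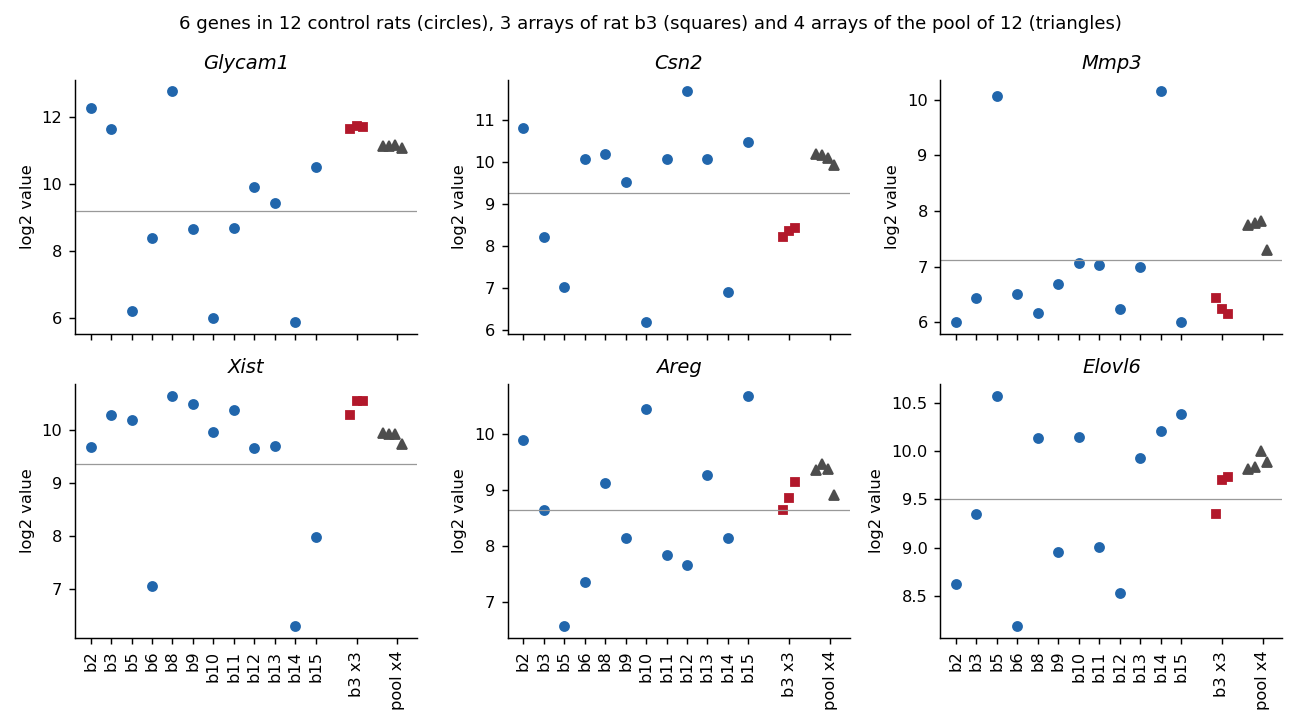
Each panel shows the log2 values of 1 gene by array, with circles for the 12 control rats, squares for the 3 arrays of rat b3, triangles for the 4 arrays of the pool of 12, and a grey line at the mean of the rats. The repeat arrays of Glycam1 stay within 0.1 log2 while the rats run from 5.89 to 12.76, and Xist falls out in b14, b6 and b15 alone.

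The other genes among the 20 of largest spread had SDs from 0.83 for Elovl6 to 1.18 for Clca1, with adjusted p from 6.86e-08 for Clca1 to 6.28e-05 for Krt10. They included the chemokine Cxcl13, the basal keratin Krt15, the replication licensing subunit Mcm6, the cell cycle regulator Cks2, the glycolytic regulator Pfkfb3, the immediate early factor Egr2, the secreted glycoprotein Gp2, the transcription regulators Id2 and Nfix, and the water channel Aqp5. Spink8, a protease inhibitor, and LOC102552398, a gene without a name, were also among them. The other probe set of Pfkfb3 had an SD of 0.22 and was not called (adjusted p = 0.0611). Krt10, a keratin of the upper layers of skin, rested on 1 animal. It stood at 8.22 in b5 and between 5.09 and 5.43 in the other 11 rats. Its SD fell from 0.87 to 0.10 without b5, and it was then not called.

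At the other end were highly expressed genes that hardly moved. Among genes with a mean above 9 log2 the smallest SDs between rats, 0.036 to 0.041, were those of Mcrs1, Nelfb, Rps23, Rpsa and Ppp6r3. Rps23 and Rpsa are parts of the small ribosomal subunit and Nelfb is part of a complex that pauses RNA polymerase. Rps23 ran from 13.07 to 13.20 over the 12 rats, while its SD within repeats was 0.074. These genes were chosen for their small SD, which is given as a description.

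Milk and secretory genes varied in 11 of 15 measured cases (73.3%, against 11.5% of all genes), with a median SD of 0.29 between rats and 0.081 within repeats. Wap, the whey acidic protein, ran from 9.05 in b15 over a median of 10.03 to 11.44 in b12 (SD 0.71, adjusted p = 5.39e-06). Olah, which ends fatty acid chains at medium length in milk fat, ran from 11.02 in b15 to 12.57 in b12 and b2 (SD 0.46, adjusted p = 0.000164). Both were lowest in b15 and b10, and b12 was highest, with b2 level with it for Olah. The low rats of Glycam1 and Csn2 were thus only partly those of these genes, since b14 had 12.06 for Olah, above its median of 11.90.

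Basal epithelial genes were called in 11 of 13 cases (84.6%), with a median SD of 0.37 against 0.080 within repeats. Krt15 ran from 7.57 in b14 over a median of 10.15 to 10.66 in b13, and b5 and b10 followed b14 at 8.45 and 8.88. Krt5, the keratin of basal cells, was lowest in the same rats, b14, b5 and b10, at 9.97, 10.01 and 10.24, around a median of 10.95 (SD 0.42, adjusted p = 0.000348). Tp63, the master regulator of basal cells, was lowest in b14 at 7.65 and b5 at 7.99, but b10 had 8.83 (SD 0.41, adjusted p = 0.00212). The other probe set of Tp63 had an SD of 0.084 and was not called. Myh11, a contractile protein of smooth muscle that basal cells share, was lowest in b2 at 9.88 and b3 at 10.12, with a median of 10.88 and 11.22 in b12 (SD 0.42, adjusted p = 0.000187). Myh11 was thus not lowest in the rats that were lowest for Krt15 and Krt5. Krt5 and Tp63 were not called without rats b5, b10 and b14.

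Luminal genes were called in 10 of 23 cases (43.5%), at a median SD of 0.20 against 0.094. Next to Areg in spread, the receptor of prolactin, Prlr, ran from 8.54 in b15 and 8.71 in b14 over a median of 9.82 to 10.07 in b10 (SD 0.48, adjusted p = 0.000193). It was not called among treated rats (SD 0.20, adjusted p = 0.0937), nor in control rats without b6, b14 and b15. Of its other probe sets, that with an SD of 0.32 was called (adjusted p = 0.00323) and that with 0.13 was not. Prom1, a membrane protein of hormone-sensing luminal cells, was high in b15 and b10, at 9.96 and 9.86, over a median of 9.12 (SD 0.41, adjusted p = 0.00108). Kit, the receptor of stem cell factor in luminal progenitors and mast cells, ran from 8.16 in b15 to 9.20 in b6 (SD 0.33, adjusted p = 0.0047). Rat b15 was at an end of the range for each of these 4 genes. Its array also had the highest technical score of the 12 rats, 13.97, whose part was not tested.

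Adipocyte genes were called in 13 of 18 cases (72.2%), with a median SD of 0.32 against 0.090. Mest, an imprinted gene linked to fat cell enlargement, ran from 8.24 in b5 over a median of 10.06 to 10.92 in b6 (SD 0.70, adjusted p = 7.85e-05). Slc2a4, the insulin-responsive glucose transporter, ran the other way, from 7.42 in b6 to 8.88 in b14 (SD 0.47, adjusted p = 0.000217), with its other probe set at an SD of 0.18. The triglyceride lipase Pnpla2 ran from 10.70 in b12 to 12.02 in b14 (SD 0.42, adjusted p = 0.00109). Plin1, the coat of lipid droplets, ran from 7.60 in b2 to 9.14 in b14 (SD 0.42, adjusted p = 0.00212). Rat b14 was highest for the last 3, and without b5, b10 and b14 neither Pnpla2 nor Plin1 was called.

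Lipogenesis genes were called in 17 of 22 cases (77.3%), with a median SD of 0.31 against 0.105. Elovl6, which lengthens fatty acids, ran from 8.18 in b6 over a median of 9.64 to 10.58 in b5 (SD 0.83, adjusted p = 3.82e-05). Me1, a source of NADPH for fatty acid synthesis, ran from 8.95 in b6 to 11.40 in b5 (SD 0.75, adjusted p = 0.000238), and its other probe set had an SD of 0.68. Agpat2, a step of triglyceride assembly, ran from 8.89 in b6 to 10.92 in b14 (SD 0.74, adjusted p = 2.12e-05). Pnpla3, a lipid droplet protein that feeding induces, ran from 6.48 in b6 to 8.51 in b15 (SD 0.71, adjusted p = 7.85e-05). Low values fell to b6, b12 and b2 in most of them and high values to b5, b14, b15 and b10. The list mean moved over the 12 rats with the gap between the 3′ and 5′ control probe sets of Gapdh, a measure of RNA and labelling quality chosen after the data were seen (r = 0.71, rho = 0.67). That gap ran from 0.49 log2 in b6 to 0.89 in b5, and its part in the result was not tested.

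Thermogenic fat genes were called in 3 of 11 cases (27.3%) and their median SD, 0.098, was below that of repeats, 0.100. Cidea, a lipid droplet protein of brown and white fat, ran from 8.43 in b12 to 9.79 in b5 (SD 0.46, adjusted p = 0.000172). Fabp3, a fatty acid carrier, stood at 8.57 in b2 and at 6.50 to 7.30 in the other 11 (SD 0.54, adjusted p = 0.000647), and was not called without b2. Kcnk3, a potassium channel, ran from 7.94 to 8.77 (SD 0.28, adjusted p = 0.00929). It was not called without b5, b10 and b14, and its other probe sets, with SDs of 0.08 and 0.15, were not called. Ucp1, the uncoupling protein that defines brown fat, had a mean of 5.86 and an SD of 0.09.

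Fibroblast and matrix genes had the highest share of calls of the 27 lists, 23 of 25 (92.0%), with a median SD of 0.32 against 0.099. Lum, a small proteoglycan of collagen fibres, ran from 8.85 in b5 over a median of 10.08 to 11.02 in b6 (SD 0.67, adjusted p = 0.000206). Postn, a matrix protein of active fibroblasts, ran from 10.25 in b5 to 12.59 in b6 (SD 0.65, adjusted p = 3.82e-05). Col1a2, a chain of collagen I, ran from 11.16 in b5 to 12.97 in b6 (SD 0.45, adjusted p = 0.000412), and its other probe set had an SD of 0.52. Ogn, another proteoglycan, ran from 8.18 in b3 to 10.27 in b6 with an SD of 0.52, but 0.27 within repeats (adjusted p = 0.00719). Its 3 other probe sets had SDs of 0.46, 0.61 and 0.42, and each was called. Ogn was not called without b3. Where calls are given without b3, the 2 further arrays of that rat were left out too. Noise then came from the pool of 12 alone. With that noise and b3 kept, Ogn was not called either. Rat b6 was highest for all 4 genes. It also had the smallest 3′ to 5′ gap of the Gapdh control probe sets, 0.49 log2, with which the list mean correlated at r = -0.63 (rho = -0.34). With the technical score it gave r = 0.44 (rho = 0.69), and the part of either was not tested.

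Endothelial genes were called in 8 of 14 cases (57.1%), with a median SD of 0.20 against 0.078. Cldn5, a tight junction protein of vessels, ran from 7.86 in b13 over a median of 8.12 to 9.15 in b14 (SD 0.37, adjusted p = 0.000962). Pecam1 (SD 0.36, adjusted p = 0.0234), the growth factor receptor Kdr (SD 0.36, adjusted p = 0.0226) and Mmrn2 (SD 0.31, adjusted p = 0.0101) were each highest in b5 and second highest in b14. None of these 3 was called without b5, and none of the 4 without b5, b10 and b14.

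Lymphocyte lists stayed near the noise of the arrays, but their genes were dim. The median level was 5.90 log2 for T cell genes and 6.42 for B cell and lymph node genes, against 7.815 for all genes. Probe sets with means of 4.17 to 6.10 were called in 1.51% of cases, and those up to 7.44 in 7.39%. Few calls here therefore do not show that lymphocyte content was steady. No T cell gene of 16 was called by limma, 2 had an unadjusted p under 0.05, and the unmoderated F test called 0. Their median SD was 0.103 between rats and 0.109 within repeats. Of 7 B cell and lymph node genes Cxcl13 alone was called. This chemokine, which draws B cells into follicles, ran from 6.67 in b13 over a median of 7.19 to 9.73 in b10, with 9.28 in b14 and 8.64 in b5 (SD 1.02, adjusted p = 3.3e-06). The other 6 genes of the list, Cxcr5, Madcam1, Cd37, Cd79b, Fcer2 and Lta, had SDs from 0.04 to 0.15. Madcam1, an adhesion molecule of lymph node and mucosal vessels, had 0.14, and none of the 6 was called.

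Macrophage genes were called in 5 of 14 cases (35.7%), led by Gpnmb, a membrane protein of lipid-laden macrophages, which ran from 7.56 in b9 over a median of 8.0 to 9.30 in b10, 8.85 in b14 and 8.72 in b5 (SD 0.54, adjusted p = 7.67e-05). The complement component C1qc (SD 0.26, adjusted p = 0.0176), the endotoxin co-receptor Cd14 (SD 0.25, adjusted p = 0.0242) and the lysozyme Lyz2 (SD 0.22, adjusted p = 0.0226) varied less. Rat b12 was highest for Cd14 and low for C1qc, so these genes did not share their order. Cd74, the chaperone of MHC class II, was the sole called gene of 8 in its list, from 10.80 to 11.39 (SD 0.19, adjusted p = 0.0283). Of 13 mast cell genes Kit and the protease Cpa3 were called, the latter from 8.54 in b5 to 9.35 in b6 (SD 0.24, adjusted p = 0.0225). Cd14 was not called without b12, nor Cd74 without b3, b14 or b15 in turn, nor Cpa3 without b3 or b6. With b3 kept and noise from the pool alone, Cd74 and Cpa3 were not called either. Without b5, b10 and b14, C1qc, Lyz2 and Cd74 were not called.

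Muscle, skin, nerve and blood can come along with a dissected gland. Among 28 skeletal muscle genes Acta1, muscle alpha actin, alone was called, with values from 5.17 in b2 over a median of 5.84 to 6.99 in b12 (SD 0.59, adjusted p = 1.21e-05). Myh1, a fast myosin, had an SD of 0.19 and was not called, and the median SD of the list was 0.090. The median level of the list was 5.71 log2. Its mean correlated with the technical score at r = -0.82 (rho = -0.76), whose part was not tested. Of 17 skin genes 5 were called (29.4%). Beside Krt10 they included Lgals7, a galectin of stratified epithelium, low in b14 at 8.63 and b5 at 9.03 against a median of 10.28 (SD 0.61, adjusted p = 3.82e-05; not called without b5, b10 and b14), and Krt1, at 7.94 in b5 and 6.77 to 7.09 in the others (SD 0.30, adjusted p = 0.0138; not called without b5 or without b3). Krt1 was also not called with b3 kept and noise from the pool alone. Aqp3, a glycerol channel, ran from 5.23 to 5.97 (SD 0.24, adjusted p = 0.0137). The skin list's median SD was 0.15 in control and 0.37 in treated rats, a difference that was not tested.

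Of 16 nerve and Schwann genes 4 were called (25.0%). The list mean correlated with the technical score at r = -0.71 (rho = -0.51), whose part was not tested. Mbp, a myelin protein, ran from 7.14 in b2 to 8.66 in b5 (SD 0.41, adjusted p = 0.00258), and its other probe set had an SD of 0.19 and was not called. Cnp, a myelin enzyme, was instead highest in b12 at 11.09 (SD 0.31, adjusted p = 0.000759), and S100b, shared by Schwann and fat cells, was highest in b14 at 11.13 (SD 0.30, adjusted p = 0.000868). Gap43, a growth cone protein, had an SD of 0.20 (adjusted p = 0.0183) and was not called without b3 or among treated rats. It was also not called with b3 kept and noise from the pool alone. Of 6 erythrocyte genes Hbb and Alas2 were called. Hbb, a haemoglobin chain, ran from 10.82 in b12 over a median of 11.39 to 12.44 in b8 (SD 0.59, adjusted p = 1.99e-05). Alas2, which starts haem synthesis in red cells, ran from 7.22 in b9 to 8.12 in b14 (SD 0.30, adjusted p = 0.00397), and b8, b6 and b14 were the 3 highest rats for both. The mean of the erythrocyte list correlated with the 3′ to 5′ gap of beta-actin at r = -0.71 (rho = -0.64), whose part was not tested.

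**Figure D3:**
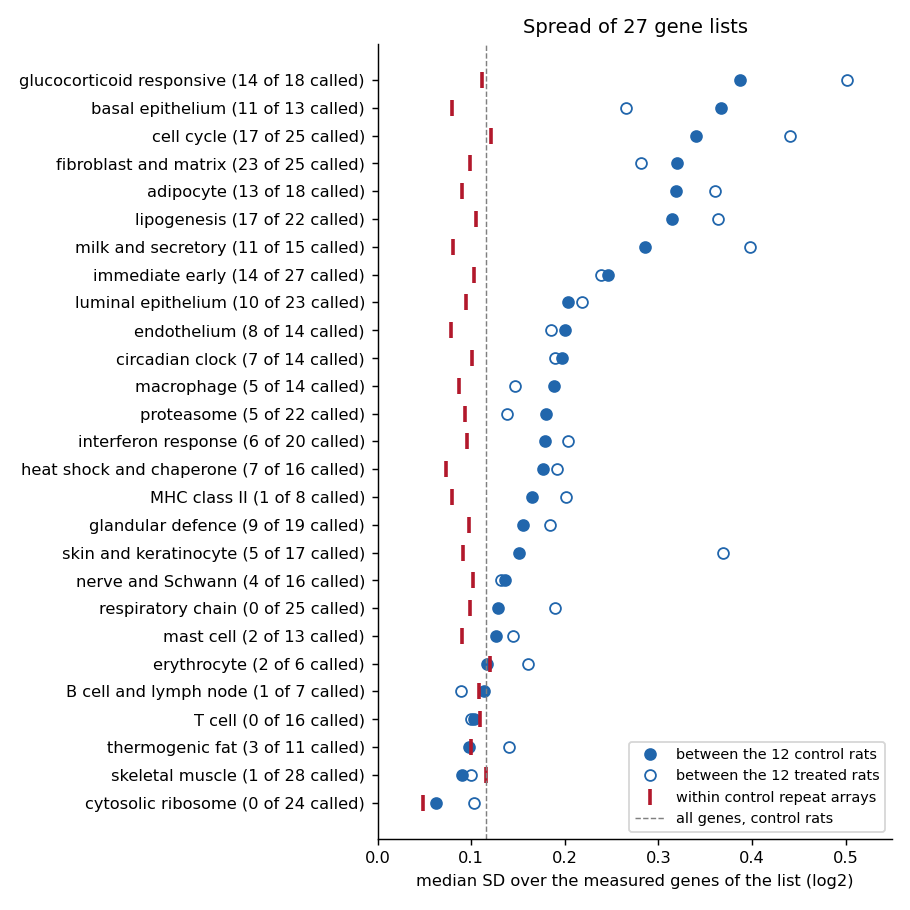
For each of 27 gene lists the filled circle gives the median SD of its measured genes between the 12 control rats, the open circle that between the 12 treated rats, and the red bar that within control repeat arrays, on a linear axis in log2 units. The dashed line is the median of all genes, 0.116, and labels give how many genes were called in control rats. Glucocorticoid responsive, basal, cell cycle, matrix, adipocyte and lipogenesis genes lie above 0.3, and ribosomal genes at 0.062.

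Cell cycle genes were called in 17 of 25 cases (68.0%), with a median SD of 0.34 against 0.121. Mcm6 and Mcm2 are subunits of the helicase that opens replication origins. Mcm6 ran from 5.65 in b5 over a median of 7.25 to 8.35 in b2, and Mcm2 from 7.08 in b14 to 8.90 in b15 (SD 0.60, adjusted p = 2.25e-05). Cks2, which binds cyclin-dependent kinases, ran from 5.62 in b5 over a median of 7.0 to 8.45 in b15 (SD 0.87, adjusted p = 5.11e-06). Stmn1, which loosens microtubules at mitosis, ran from 8.13 in b14 to 10.61 in b15 (SD 0.76, adjusted p = 4.93e-05). Rats b5, b14 and b10 were the 3 lowest for Mcm6, Mcm2 and Cks2, and b5 and b14 the 2 lowest for Stmn1.

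Glucocorticoid responsive genes had the highest median SD of all lists, 0.39 against 0.112, and 14 of 18 were called (77.8%). Tsc22d3, a direct target of the glucocorticoid receptor, ran from 8.61 in b13 over a median of 9.46 to 10.59 in b14 (SD 0.58, adjusted p = 0.000133). Fkbp5, a co-chaperone of the same receptor, ran from 7.05 in b9 to 8.62 in b2 (SD 0.58, adjusted p = 6.01e-05). Pdk4, a kinase that spares glucose in fasting, ran from 6.88 in b13 to 8.85 in b14 (SD 0.61, adjusted p = 8.34e-05), and the lipase inhibitor Angptl4 from 9.12 in b13 to 11.66 in b14 (SD 0.65, adjusted p = 4.2e-05). Rats b13 and b9 were among the 3 lowest for all 4 genes, and b14 was highest for 3 of them.

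Immediate early genes were called in 14 of 27 cases (51.9%), and their mean correlated with the Gapdh gap at r = 0.61 (rho = 0.59), whose part was not tested. Fos ran from 7.05 in b2 over a median of 8.51 to 9.74 in b10 (SD 0.78, adjusted p = 4.08e-05), and its other probe set had an SD of 0.10. Egr2 had its highest value where Fos had its lowest, 9.71 in b2, and its lowest in b5 at 6.96 (SD 0.86, adjusted p = 5.39e-06). The other probe set of Egr2 followed at r = 0.89 but had an SD of 0.22 and was not called. Egr1 was highest in b10 at 11.52 and lowest in b6 at 9.67 (SD 0.42, adjusted p = 0.000356). Klf2, a factor that blood flow induces in vessels, stood at 9.89 in b14 and at 8.23 to 8.98 in the others (SD 0.44, adjusted p = 0.000868). Its 4 other probe sets had SDs of 0.158, 0.115, 0.446 and 0.100, and that of 0.446 alone was called. These 4 genes thus had 3 different highest rats.

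Clock genes were called in 7 of 14 cases (50.0%). Nr1d1, a repressor at the core of the clock, ran from 6.26 in b9 over a median of 7.23 to 9.10 in b5 (SD 0.81, adjusted p = 3.22e-05). Dbp, one of its output factors, stood at 8.69 in b5 and at 6.30 to 7.32 in the others (SD 0.60, adjusted p = 0.000376). Nr1d2 was also highest in b5, at 9.42, and lowest in b13 (SD 0.43, adjusted p = 0.00197), while Per1, which glucocorticoids also induce, was highest in b14 at 9.36 (SD 0.29, adjusted p = 0.00424). No label gives the time of day at which glands were taken.

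Glandular defence genes were called in 9 of 19 cases (47.4%). Gp2 ran from 7.10 in b14 over a median of 8.85 to 9.84 in b12, and Reg3b, an antibacterial lectin, from 6.94 in b15 to 9.30 in b12 (SD 0.59, adjusted p = 7.12e-05). The odorant-binding protein Obp3 ran from 5.91 in b14 to 7.91 in b8 (SD 0.61, adjusted p = 0.000201), and complement C3 from 6.38 in b3 to 8.04 in b15 (SD 0.53, adjusted p = 0.000647). Obp3 was highest in b8 and b10, at 7.91 and 7.49, while b3 had 6.44. By stage b3, b8 and b10 differ from the rest, and Obp3 was not called among the 9 rats in diestrus alone.

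Interferon response genes were called in 6 of 20 cases (30.0%), with SDs of 0.35 for Mx2 (adjusted p = 0.00166), 0.28 for Psmb9 (0.00922), 0.27 for Irf1 (0.00657) and 0.26 for Irf7 (0.00232). Mx2 was highest in b12 and b8, Psmb9 and Irf1 in b15, and Irf7 in b3, without which it was not called. Psmb9 was not called without b15, nor without b5, b10 and b14. Chaperone genes were called in 7 of 16 cases (43.8%), with Pdia4, of the endoplasmic reticulum, lowest in b5, b14 and b10 (SD 0.29, adjusted p = 0.00255) and not called without them. The cytosolic Hspb1 (SD 0.29, adjusted p = 0.00508) and Hspa1a (SD 0.28, adjusted p = 0.00267) were highest in b5 and b14 instead. Hspe1, of mitochondria, was highest in b15 (SD 0.23, adjusted p = 0.0162; not called without b15).

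Proteasome genes were called in 5 of 22 cases (22.7%), each with an SD below 0.26, and the list had a median SD of 0.18 against 0.093 within repeats, and Psma4, Psma7 and Psmb3 were lowest in b14 or b5. Psma4 was not called without b14, Psmb3 without b5, and Psmd1 without b3, b10 or b15 in turn. Psma7 and Psmd1 were also not called with b3 kept and noise from the pool alone. Without b5, b10 and b14 none of Psma4, Psma7, Psmd1 and Psmb3 was called. No gene of the respiratory chain, of 25, and none of the cytosolic ribosome, of 24, was called by limma, where 4 and 1 had an unadjusted p under 0.05, and the unmoderated F test called 0 in both. Their median SDs were 0.129 and 0.062, against 0.099 and 0.049 within repeats and 0.116 for all genes between rats. Among treated rats 15 of the 25 respiratory chain genes and 2 of the 24 ribosomal genes were called, with median SDs of 0.19 and 0.103. Calls were more frequent there in general, with 2610 of all 10411 genes called at a median SD of 0.124.

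Genes that moved together were sought among the 104 called genes with an SD of at least 0.5, by average linkage on correlation over the 12 rats, cut at r = 0.7. The 4 groups of 5 or more genes held 60 of the 104. Since the groups were formed on these values, their likeness is a description with no test. Over the 12 treated rats, which were not used to form them, the mean pairwise r within groups was 0.75, 0.71, 0.78 and 0.80, against 0.013 over all 104 genes.

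The group led by Glycam1 held 32 genes at a mean pairwise r of 0.79. It joined the milk genes Glycam1 and Csn2 with Clca1, Krt15, Lum, Postn and Lgals7 and with 9 of the cell cycle list, Mcm6, Cks2, Stmn1, Mcm2, Mcm4, Mki67, Mcm3, Pcna and Cdk1. Ccnd1, the cyclin that starts the cycle, belonged to it with all 3 of its probe sets at an SD of 0.49 to 0.64. Against its average over the 12 rats the group mean stood at -1.21 log2 in b5, -1.15 in b14 and -0.65 in b10, and from -0.15 in b3 to 0.79 in b15 in the other 9. Cell cycle genes outside the group followed its mean (r = 0.93, rho = 0.88), as did the proteasome list (r = 0.89, rho = 0.94). The rest of the milk list gave r = 0.21 (rho = 0.23). Endothelial genes ran against it (r = -0.92, rho = -0.85), and so did the B cell and lymph node list (r = -0.83, rho = -0.71) and the clock list (r = -0.82, rho = -0.77). Their part in the spread of the group was not tested, and the low rats b5, b10 and b14 weigh on all of these values. Of the B cell and lymph node list Cxcl13 alone was called (SD 1.02), and it belongs to the group led by Mmp3. Without Cxcl13 that list gave r = 0.05 (rho = 0.04) with the mean of the Mmp3 group. Its correlation with the Glycam1 group was not computed without Cxcl13, so -0.83 may rest on that gene. Clca1, an ion channel regulator secreted by epithelia, ran from 9.51 in b5 over a median of 12.50 to 13.03 in b13. Its likeness to Csn2 over the 12 rats was r = 0.88, and Racgap1, needed for cytokinesis, and Krt15 came next at 0.87 and 0.86, over 103 genes compared. Glycam1 was most like Mcm3 (0.92), Mcm6 (0.90) and Dnph1 (0.90). In treated rats these 6 values were 0.63, 0.75, 0.51, 0.84, 0.87 and 0.87.

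Promoters of this group were read from RefSeq's GRCr8 tables, from 250 bases before to 50 after the start, to show what its milk and cell cycle members carry. For the milk genes the letters searched were TTCNNNGAA, the core to which STAT5 binds below prolactin. Searched on both strands, they occurred in Csn2 and Glycam1, 2 of the 26 promoters of the group at hand (7.69%), in 1 of 5 of the group led by Xist (Desi2), and in 8.87% of all 33469 promoters. For the cell cycle genes they were the E2F-type words TTTCCCGC, TTTGGCGC, TTTCGCGC and TTTGCCGC on both strands. These occurred in 7 of the 26 (26.9%), Cdk1, Dnph1, Mcm2, Mcm3, Mcm6, Pclaf and Stmn1, in 0 of 8 promoters of the group led by Elovl6, 0 of 9 for Mmp3 and 0 of 5 for Xist, and in 2.14% of all. Words on opposite strands overlap in Mcm6 and Mcm2. Matches describe letters and not binding, and both motifs were chosen with the groups known. The stretches below are shown because they hold the words in a pair of milk genes and in 3 genes of the cell cycle, upstream of the start and 5′ to 3′ on the strand of the gene, with the words in capitals.
Glycam1, chr7:136561300-136561499, minus strand: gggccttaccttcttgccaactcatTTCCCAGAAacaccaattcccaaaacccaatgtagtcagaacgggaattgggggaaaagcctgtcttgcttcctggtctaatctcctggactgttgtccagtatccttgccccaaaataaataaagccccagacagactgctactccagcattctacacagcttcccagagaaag
Csn2, chr14:20601704-20601823, plus strand: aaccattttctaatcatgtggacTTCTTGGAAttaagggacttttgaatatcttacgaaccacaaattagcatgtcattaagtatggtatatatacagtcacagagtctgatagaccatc
Mcm6, chr13:42404353-42404502, minus strand: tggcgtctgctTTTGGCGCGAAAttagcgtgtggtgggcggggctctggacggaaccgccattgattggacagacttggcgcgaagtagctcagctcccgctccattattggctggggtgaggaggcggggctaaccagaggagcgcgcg
Mcm2, chr4:122918095-122918154, minus strand: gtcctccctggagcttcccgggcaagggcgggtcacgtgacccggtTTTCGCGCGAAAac
Stmn1, chr5:151965079-151965178, plus strand: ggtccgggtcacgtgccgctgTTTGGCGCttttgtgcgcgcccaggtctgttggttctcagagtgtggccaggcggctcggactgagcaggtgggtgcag

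The group led by Elovl6 held 11 genes at a mean pairwise r of 0.84, most of them of fat synthesis. Beside Elovl6, Me1, Agpat2 and Pnpla3 it held Acss2 and Acaca, which make acetyl-CoA and malonyl-CoA, Mtarc1, Ppp1r1a, Car5b and Alb. Insig1, an anchor that holds back sterol-driven gene activation, ran from 9.14 in b2 over a median of 10.51 to 11.49 in b10 (SD 0.74, adjusted p = 1.75e-05). The group mean was highest in b5, b14, b15 and b10, at 0.58 to 0.84 log2 against its average, and lowest in b6, b12 and b2, at -0.83 to -0.70. Lipogenesis genes outside the group followed it (r = 0.94, rho = 0.94), as did the adipocyte list (r = 0.82, rho = 0.87). Its correlation with the Gapdh gap was r = 0.70 in control and 0.19 in treated rats.

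The group led by Mmp3 held 9 genes, Mmp3, Cxcl13, Aqp5, Serpinb9, Cxcl14, Gpnmb, Igfbp3, Tgfbi and Atosa, at a mean pairwise r of 0.80. Its mean stood 1.34 log2 above average in b14, 0.96 in b5 and 0.89 in b10, and between -0.55 and -0.09 in the other 9. Lists without its genes moved with it in the same 12 rats, endothelium at r = 0.90 (rho = 0.73), adipocyte at 0.81 (rho = 0.66) and macrophage at 0.69 (rho = 0.78). Cell cycle (r = -0.87, rho = -0.78) and milk lists (r = -0.82, rho = -0.68) ran against it, and the part of these lists in the spread was not tested. Serpinb9, an inhibitor of the killer protease granzyme B, ran from 9.30 in b15 over a median of 9.86 to 11.19 in b14, and its other probe set had an SD of 0.50. Cxcl14, a chemokine, ran from 8.56 in b2 over a median of 9.06 to 10.38 in b10, and was not called without b5, b10 and b14. Aqp5, the water channel of gland ducts and acini, ran from 7.81 in b8 over a median of 8.35 to 10.06 in b10. Igfbp3, a carrier of insulin-like growth factors, ran from 8.41 in b2 to 10.25 in b14. Mmp3 was most like Serpinb9 (0.87), Aqp5 (0.77) and Igfbp3 (0.76) over the 12 rats, and at 0.88, 0.85 and 0.58 in treated rats.

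The rats that were high in the Mmp3 group were those that were low in the Glycam1 group, b5, b10 and b14. Of these b10 was in estrus, and b5 and b14 were in diestrus. The 12 rats fell into these 3 and the other 9, and within the 9 the 2 group means gave r = -0.21 (rho = -0.32). Over the 12 treated rats, which did not form the groups, they gave r = -0.94. There the Glycam1 group mean correlated with the technical score at r = -0.51 and the Mmp3 group mean at 0.59. In control rats these values were 0.35 and -0.05. With the beta-actin gap the treated values were -0.56 and 0.51, and the part of either measure was not tested. Likeness inside both groups in control rats rested on b5, b10 and b14. Without b5, b10 and b14 the mean pairwise r was 0.11 in the Mmp3 group and 0.43 in the Glycam1 group, but 0.78 in the Elovl6 group. The SD of the group mean then fell from 0.66 to 0.14 for Mmp3 and from 0.66 to 0.28 for Glycam1.

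The group led by Xist held 8 genes, Xist, Id2, Nfix, Ccnd2, Cpd, Mef2c, Desi2 and Egfr, at the highest mean pairwise r, 0.90. Its mean stood at -1.53 log2 against its average in b14, -1.24 in b6 and -0.71 in b15, and at 0.10 to 0.72 in the other 9. Id2, which blocks differentiation factors, ran from 7.20 in b14 over a median of 9.27 to 9.81 in b8. Nfix ran from 6.06 in b14 over a median of 7.59 to 8.51 in b9. Ccnd2, a cyclin, ran from 7.38 in b14 over a median of 9.44 to 9.89 in b13 (SD 0.79, adjusted p = 1.75e-05). Cpd, a carboxypeptidase, ran from 6.73 in b15 over a median of 8.21 to 8.80 in b8 (SD 0.77, adjusted p = 1.21e-05). Xist was most like Desi2 (0.98), Egfr (0.96) and Id2 (0.95), and at 0.95, 0.76 and 0.81 in treated rats. Without b6, b14 and b15 the mean pairwise r was 0.53, and Desi2 and Egfr were no longer called.

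Other probe sets of the same genes did not follow. Of the 8 genes, 5 had 1 more probe set each, and over the 12 rats these correlated with the probe set used at r = 0.20 for Id2, 0.05 for Cpd, 0.085 for Mef2c, 0.25 for Desi2 and 0.32 for Egfr. Id2's other probe set had a mean of 8.24 and an SD of 0.19, and that of Desi2 a mean of 7.78 and an SD of 0.15. Those of Cpd, Egfr and Mef2c were dim, with means of 5.47, 5.57 and 6.17. For Cpd and Egfr their SDs, 0.125 and 0.079, were below those within repeats, 0.143 and 0.095, so these 2 could show little. Of the 5, that of Mef2c alone was called (SD 0.26). In the Elovl6 group the other probe sets of Me1, Mtarc1, Car5b and Alb followed at r = 0.94 to 0.98, and that of Acaca at 0.41. In the Mmp3 group those of Serpinb9 and Igfbp3 followed at 0.97 and 0.89. In the Glycam1 group 7 of 8 followed at 0.71 to 0.98, the other, of Lmnb1, at 0.28. The low values of the Xist group in b14, b6 and b15 are therefore shown by 1 probe set a gene. A second probe set, where there was one, did not follow it, but those of Cpd, Egfr and Mef2c were dim. The cause was not tested. Over the 12 rats the group mean correlated with the technical score at r = -0.20 and with the Gapdh gap at 0.17. In treated rats these values were -0.56 and 0.22. With the beta-actin gap the group mean gave r = 0.27 in control and 0.56 in treated rats. The part of these measures was not tested.

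**Figure D4:**
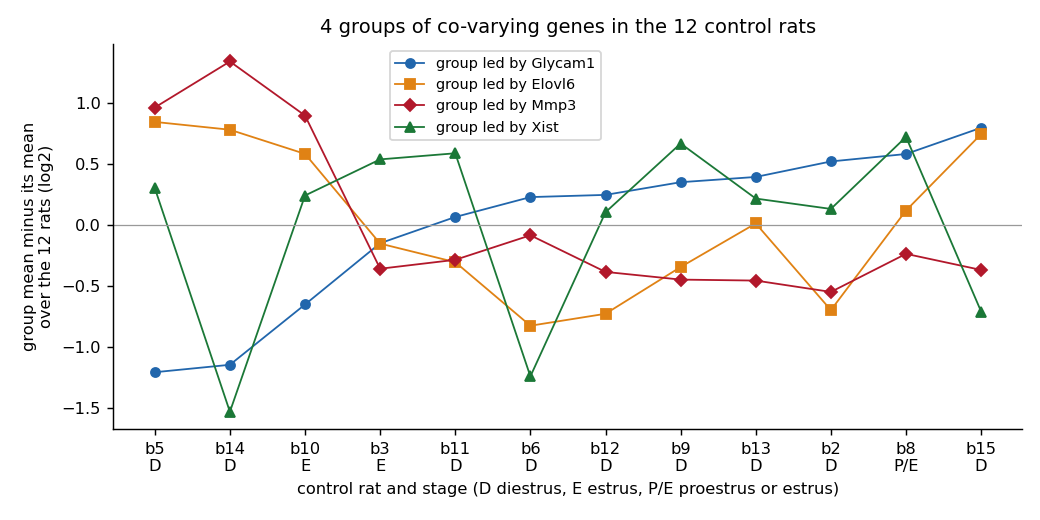
For each of 4 groups of co-varying genes the points give the mean of its genes in each control rat minus the mean over the 12 rats, in log2 units. Rats are ordered by the Glycam1 group, with their stage below the name, and lines only join points of 1 group. Rats b5, b14 and b10 stand low in the Glycam1 group and high in the Mmp3 group, while b14, b6 and b15 stand low in the Xist group.

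The same labelled targets were hybridised again in control pools of 2 and of 3 rats. Each pool was set against its members, whose values were averaged on the linear scale and returned to log2. Over the 6 pools of 2 the median correlation between pool and members was 0.89 for called probe sets, 0.96 for those with an SD of at least 0.5, and 0.13 for those not called. Without the pool of b2 and b3 the last was 0.30, and that for called probe sets 0.92. In the 4 pools of 3 they were 0.26 and 0.84. The group means followed too, at r = 0.97 for the group led by Glycam1, 0.99 for Elovl6, 0.997 for Mmp3 and 0.97 for Xist. These values describe 6 pools of the same animals. Pools and members share their labelled targets, so gland, extraction and labelling cannot be told apart here.

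Another set of animals varied in many of the same genes. Among the 12 treated rats 3560 probe sets were called (22.4%), which included 1393 of the 1642 control calls (84.8% of those and 39.1% of the treated calls). Of the 158 called probe sets with an SD of at least 0.5 in control rats, 157 were called in treated rats. Glycam1 again had a wide spread there (SD 2.74), as had Csn2 (1.65), Mmp3 (1.41), Krt10 (1.93) and Xist (0.88). Without the second technical repeat of treated rat a3, 5693 probe sets were called. All genes had a median SD of 0.124 in treated and 0.116 in control rats.

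Whether tissue types rose and fell together was asked of the means of 16 tissue lists, in 120 pairs over the 12 rats, with two-sided permutation tests of 100000 resamples and adjustment over all pairs. Of these, 2 pairs passed. Adipocyte and milk means ran against each other (r = -0.85, p = 0.00035, adjusted p = 0.042; rho = -0.84, p = 0.0011, adjusted p = 0.06). The adipocyte mean ran from 9.69 in b12 to 10.56 in b14, and the milk mean from 9.55 in b10 to 10.71 in b12, with b5 and b14 at 9.79 and 9.77. Without b12 and b14 r was -0.88, and in treated rats -0.59. Thermogenic fat and basal means also opposed each other (r = -0.85, p = 0.00074, adjusted p = 0.044; rho = -0.82, p = 0.0019, adjusted p = 0.06), with r = -0.74 without b2 and b14 and -0.60 in treated rats. The thermogenic mean spanned 6.6 to 6.87, and it correlated with the technical score at r = -0.61. With that score removed from both means, the pair had r = -0.88 (adjusted p = 0.0108). Without rats b2, b3, b6, b9, b11 or b12 in turn no pair passed, and without b5, b10 and b14 neither of these did (adjusted p = 0.256 for both), at r = -0.78 and -0.80. The thermogenic and basal pair was also lost with means of z scores (r = -0.64, adjusted p = 0.126), in the 9 rats in diestrus (adjusted p = 0.116), without b10 (0.0516) and without b14 (0.165).

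Of the other pairs, macrophage and MHC class II means came closest (r = 0.82, p = 0.0014, adjusted p = 0.055; rho = 0.84), and r was 0.76 without b10 and b14. Milk and endothelial means gave r = -0.79 (p = 0.0026, adjusted p = 0.073; rho = -0.82), with -0.80 without b10 and b14. Adipocyte and endothelial means gave r = 0.70 (p = 0.013, adjusted p = 0.14; rho = 0.53), and B and T cell means r = 0.65 (p = 0.021, adjusted p = 0.14; rho = 0.69), with 0.55 and 0.42 without the 2 farthest rats. No T cell gene was called, and of the B cell list Cxcl13 alone. The T cell mean correlated with the technical score at r = -0.775 (rho = -0.70). With that score removed from both means, the B and T cell pair had r = 0.63 (adjusted p = 0.111). The pairs of luminal means with adipocyte, basal, milk and matrix means were weaker, as was that of adipocyte and matrix means. Adipocyte and luminal means gave r = -0.48 (p = 0.12, adjusted p = 0.35; rho = -0.51), luminal and basal means 0.39 (p = 0.21, adjusted p = 0.44; rho = 0.40), luminal and milk means 0.21 (p = 0.51, adjusted p = 0.68; rho = 0.29). Luminal and matrix means gave -0.37 (p = 0.24, adjusted p = 0.48; rho = -0.29), and adipocyte and matrix means -0.14 (p = 0.66, adjusted p = 0.78; rho = 0.10). Without the 2 farthest rats these were 0.05, 0.30, 0.02, -0.31 and -0.09. The luminal mean itself spanned only 8.86 to 9.02, with an SD of 0.057, and 13 of its 23 genes were not called. With means of z scores luminal and milk gave r = 0.49 and luminal and basal 0.46, and with called genes only -0.06 and -0.035. These pairs therefore cannot decide how far epithelial content varied, which was not tested.

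**Figure D5:**
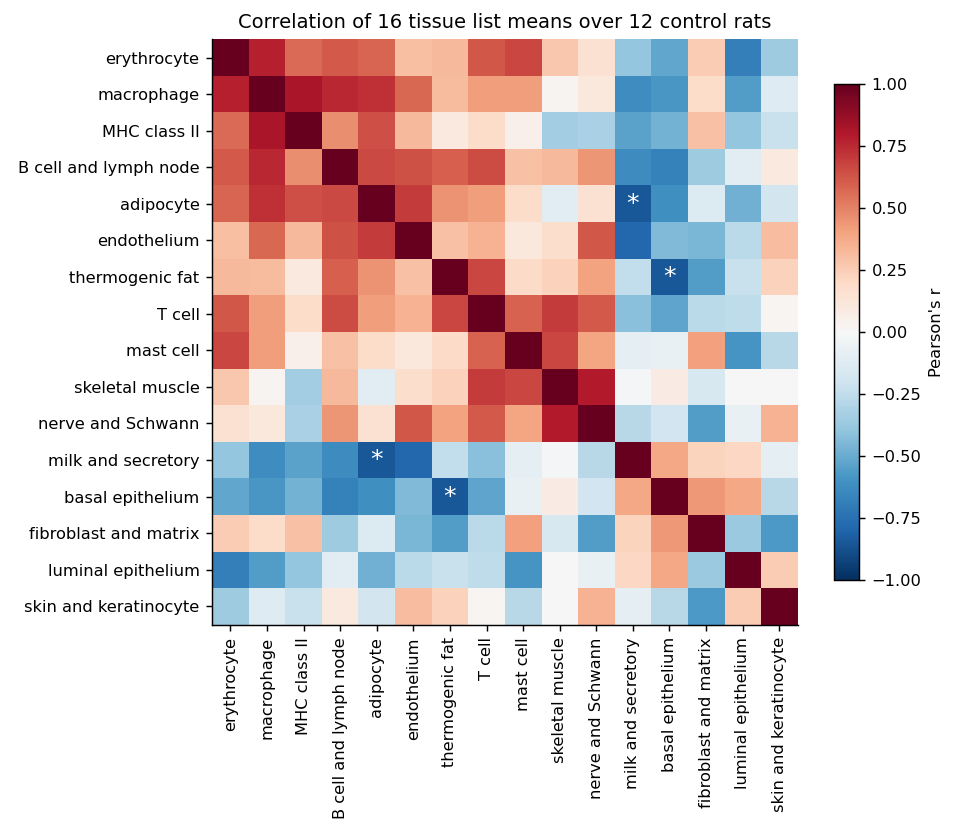
The colour of each square gives Pearson's r between the means of 2 tissue lists over the 12 control rats, red above and blue below 0, and stars mark pairs with adjusted p under 0.05. Lists are ordered by similarity. The starred pairs are adipocyte with milk and secretory, at r = -0.85, and thermogenic fat with basal epithelium, at r = -0.85.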

How the data were processed

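Per the labels' protocols, 5 µg of RNA of each gland was made into labelled, fragmented cRNA, and 10 µg was hybridised. The authors deposited a table of 15923 probe sets. Its unit was taken as log2 because values run from 4.12 to 14.08, and natural logs of 16-bit readings end at 11.1. No label names the software or normalization, and the deposited log2 values were used unchanged. The 57 control probe sets were left out. Symbols came from the platform annotation, updated through RefSeq genes of GRCr8 for 12748 probe sets. There were 12783 with 1 symbol, 312 with several and 2771 not named, and genes were represented by the probe set of highest mean.

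Differences between rats were tested with limma (lmFit, eBayes, moderated F over the 12 rats, 5 residual degrees of freedom from repeat arrays) and Benjamini-Hochberg adjustment at 0.05, and the code was tested on simulated data. P-values rest on the repeat arrays, whose number limits the precision. Named were the 20 called genes of largest SD, up to 4 called members of largest SD per list, the 5 steadiest genes above 9 log2, 3 genes most like each of the top 5, and the first 5 of each co-varying group. Other genes given with values were named after these were seen. The members and lists were chosen with earlier results of these data known. The fits ran in limma 3.58.1 under R 4.3.3, and other steps in scipy 1.17.1, pandas 2.3.3, numpy 2.4.6 and matplotlib 3.10.9 under Python 3.11.15.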

Additional observations from a re-analysis of the deposited data

Results flagged for a closer look

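In sets of 4 to 10 arrays, a value was taken as lying apart where its gap to the next, over the whole range, passed Dixon's 95% limit. Chance marks about 1 set in 20, and here 9 of 34 sets were marked. Most concern technical rep3 of the control pool of 12. Its technical score was -10.48 against 6.66 to 8.99 in the other 3 arrays. It gave Mmp3 at 7.29 (others 7.74 to 7.81), Xist at 9.73 (9.92 to 9.94) and Mcm6 at 7.24 (7.54 to 7.60). The means of the groups led by Glycam1, Mmp3 and Xist were 8.89, 8.58 and 8.29 in that array, against 9.0 to 9.01, 8.72 to 8.75 and 8.44 to 8.45. These sets share 1 array and are not separate findings. In pools of 3, the Mmp3 group mean was -0.11 log2 from the mean of the rats in the pool of b6, b8 and b9, which holds none of b5, b10 and b14, and 0.26 to 0.34 in the others. The Xist group mean was -0.57 in the pool of b12, b14 and b15, and 0.40 to 0.50 in the others.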

How the results depend on the processing

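The count of probe sets called between control rats, 1642, became 471 with an unmoderated F test, 1029 with noise from rat b3 alone, 2841 with treated repeat arrays as well, 5286 with the technical score as a covariate and 834 at an adjusted p of 0.01. Leaving out 1 array gave 1051 to 2685, and leaving out 1 rat 1220 to 1761. The lowest of the latter, 1220, was without b3, where its further arrays also went and noise came from the pool alone. With that noise and b3 kept the count was 1141. In settings added after the data were seen it was 943 without b6, b14 and b15, and 836 without b5, b10 and b14. The treated count, 3560, was 2721 to 5693 without 1 repeat array. The ratio of spread, 1.12, was 1.004 with the median absolute deviation, 1.16 with noise from rat b3 alone, 1.27 from the pool alone, 1.20 after quantile normalization, and 1.07 to 1.31 without 1 repeat array. The 2 passing pairs of lists became 8 after quantile normalization, 19 with means of z scores, 5 with called genes only, 1 in the 9 rats in diestrus, 15 after removing the technical score, and 1 without b5, b10 and b14, and 0 to 3 without 1 rat. Called genes alone turned the sign of luminal with milk (-0.0621) and luminal with basal means (-0.035), and leaving out b5, b10 and b14 that of adipocyte with matrix means (0.29). The cause of these changes was not tested. Of 103 named calls 98 remained after median centring, 102 after quantile normalization, 85 without probe sets of below-median level (which are then not tested), 61 with the unmoderated test, 91 to 103 without 1 repeat array, and 95 to 103 without 1 rat. The co-varying groups numbered 4 under both normalizations, 6 at a cut of 0.6 and 5 at 0.8, where the Glycam1 group kept 18 of its 32 genes. No paired analysis was possible because the comparison lies within 1 group. With 5 residual degrees of freedom for noise, and with dim probe sets near background, a gene not called cannot be taken as steady.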
